A study of Mus musculus with 6 samples.

Results

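The kinesin genes of the DG granule cell layer were examined in control and Bcl11b/Ctip2 mutant mice. All genes with a symbol of the form Kif and a number were taken, together with the kinesin light chain genes Klc1 to Klc4, and each was read from the probe set with the highest mean among those paired with exactly 1 gene. This rule gave 41 of the 19938 genes measured, namely 37 Kif genes, the pseudogene Kif4-ps and 3 light chain genes. Klc2 was not analysed here.

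RNA came from the granule cell layer, which was cut by laser capture microdissection from stained cryosections. Mice were 2 months old at induction and the tissue was taken 4 weeks later. In this tet-off line both Bcl11b alleles of the mutants are floxed. A tTA transactivator under the CaMKIIα promoter drives tetO-Cre, and with it the loss of Bcl11b, in neurons of the forebrain after doxycycline is taken away. Mice of the line had doxycycline in the drinking water from embryonic life until induction. The sources used here do not give the genotype of the controls. Each group holds 3 arrays, and whether each array is 1 animal is not stated, so that every p-value reflects the spread among these arrays, which may be technical. Values are log2 expression levels after RMA, and a change is the mutant mean minus the control mean, so that a change of 1 is a doubling of the signal. Bcl11b itself, a zinc finger transcription factor, read 10.56, 10.40 and 10.30 in the controls and 9.03, 8.68 and 8.82 in the mutants. It fell by 1.58 ± 0.099 (SE; limma, adjusted p = 2.56e-05).

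Kinesins are motor proteins that use ATP to act on microtubules. Most walk toward the plus end and carry vesicles, organelles, receptors or mRNA into axons and dendrites. Kinesin-1 is built from heavy chains (Kif5a, Kif5b, Kif5c) and light chains (Klc) that bind cargo, kinesin-2 includes the Kif3 motors and Kif17, and kinesin-3 includes the vesicle motors Kif1a and Kif1b. Others act in the mitotic spindle or in cilia. Granule cells depend on such transport to supply their mossy fibers and their dendrites.

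Of the 41 kinesin genes, 7 passed the test at an adjusted p of 0.05, 4 higher and 3 lower in the mutant, which is 17.1% against 15.2% of all genes. Of all genes, 9.23% passed as higher and 5.93% as lower, so the share of kinesins that passed was close to that of all genes measured. The genes that rose were Klc1, Kif5a, Kif21b and Kif26b, and those that fell were Kif17, Kif27 and Kif18a. The control and mutant arrays did not overlap for 16 kinesin genes (39.0%), against 31.6% of all genes. The median change over the kinesin genes was 0.038, and over all genes it was -0.0027.

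**Figure D1:**
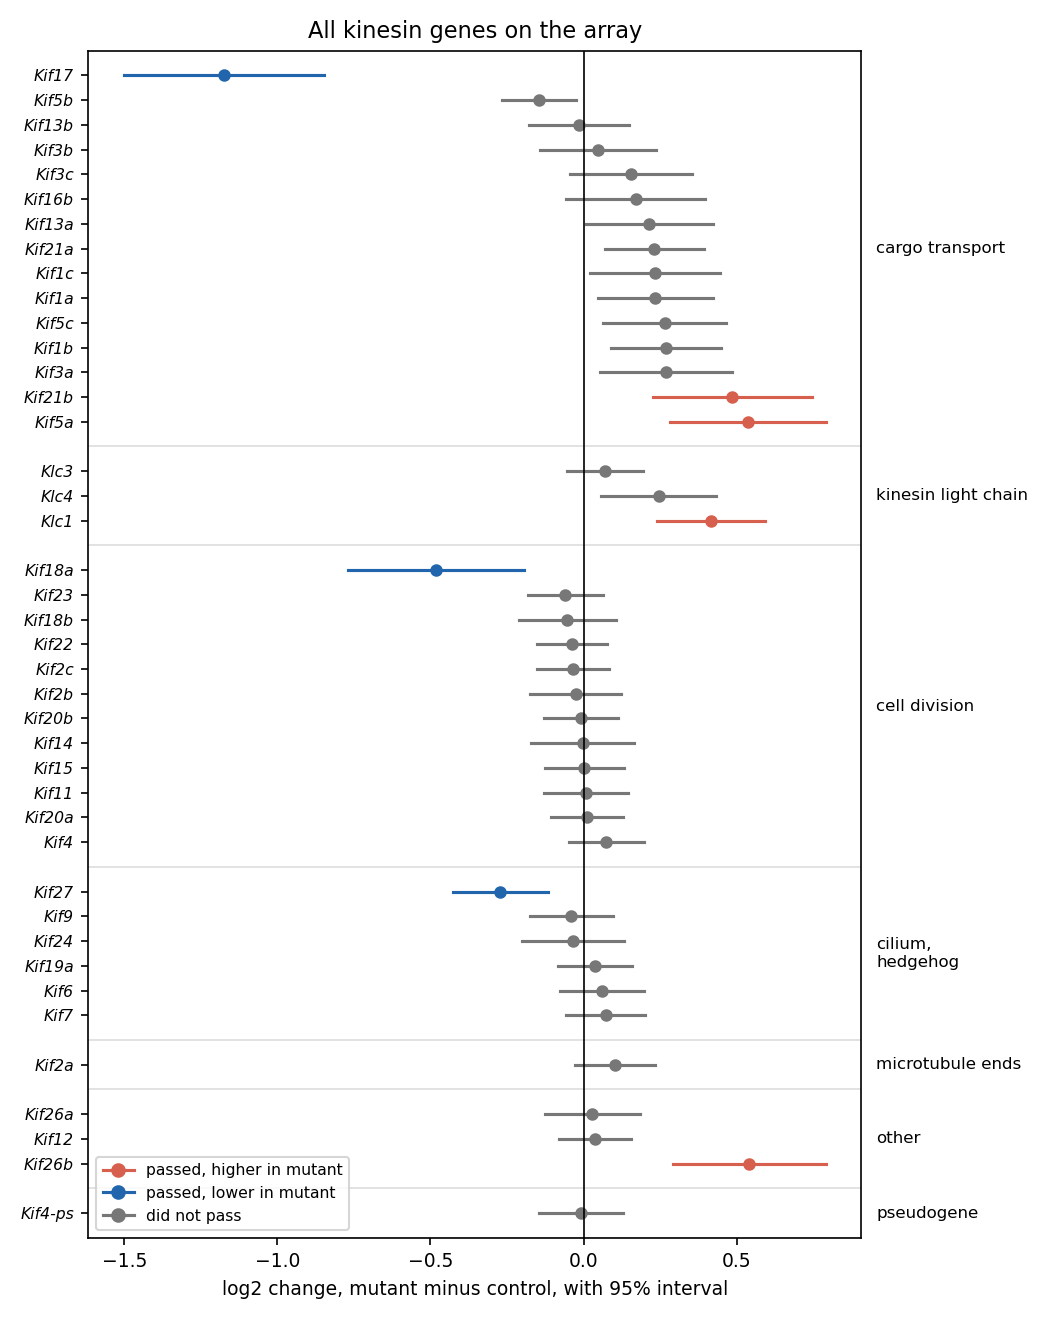
Log2 change, mutant minus control, of the 41 kinesin genes by role, with 95% intervals from limma (3 control and 3 mutant arrays). Colour marks the 7 genes that passed the test. Kif17 has the most negative change, at -1.17, and most cargo-carrying motors lie to the right of 0.

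Promoter windows were available in the RefSeq table of GRCm38.p6 for 34 of the 41 genes, 38 windows in all, each running from 250 bases before to 50 after a transcription start. They were searched on both strands for TGACGTCA, the cAMP response element bound by CREB, and for TGGGC, a motif described as a putative Bcl11b/Ctip2 binding site, both chosen with the values known. TGACGTCA reads the same on both strands and shares no match with TGGGC. It occurred in 4 kinesin windows (10.5%) and in 1.79% of all 32807 windows of this length. Kif5a and Kif21b, which passed the test, had no window, and 5 of the 38 windows belong to genes that passed. The 4 windows with the element belong to Kif17, Klc1, Kif18a and Kif5c, and 3 of these genes passed, 2 lower and 1 higher. Whether the element goes with passing was not tested. The sequences of these 4 windows are printed because they hold this element, shown in capitals. They run 5′ to 3′ on the plus strand, which is the strand of each gene, at chr4:138262001-138262300 for Kif17, chr12:111758618-111758917 for Klc1, chr2:109280488-109280787 for Kif18a and chr2:49619036-49619335 for Kif5c.
Kif17: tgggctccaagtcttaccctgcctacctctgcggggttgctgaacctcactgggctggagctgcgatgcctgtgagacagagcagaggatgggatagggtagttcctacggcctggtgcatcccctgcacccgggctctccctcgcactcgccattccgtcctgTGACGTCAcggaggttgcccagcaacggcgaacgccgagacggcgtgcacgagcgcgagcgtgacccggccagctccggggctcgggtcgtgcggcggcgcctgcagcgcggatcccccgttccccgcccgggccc
Klc1: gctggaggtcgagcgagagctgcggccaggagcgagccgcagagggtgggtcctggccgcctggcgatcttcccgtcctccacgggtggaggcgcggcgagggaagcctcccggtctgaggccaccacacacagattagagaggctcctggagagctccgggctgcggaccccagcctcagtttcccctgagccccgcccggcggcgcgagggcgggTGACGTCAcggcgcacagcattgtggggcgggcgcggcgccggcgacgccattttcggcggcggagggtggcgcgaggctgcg
Kif18a: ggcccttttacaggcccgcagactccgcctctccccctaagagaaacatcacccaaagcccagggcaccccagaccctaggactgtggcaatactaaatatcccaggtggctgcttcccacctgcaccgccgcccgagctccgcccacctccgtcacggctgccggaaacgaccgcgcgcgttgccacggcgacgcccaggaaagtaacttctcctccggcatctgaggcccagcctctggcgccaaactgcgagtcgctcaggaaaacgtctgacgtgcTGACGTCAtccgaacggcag
Kif5c: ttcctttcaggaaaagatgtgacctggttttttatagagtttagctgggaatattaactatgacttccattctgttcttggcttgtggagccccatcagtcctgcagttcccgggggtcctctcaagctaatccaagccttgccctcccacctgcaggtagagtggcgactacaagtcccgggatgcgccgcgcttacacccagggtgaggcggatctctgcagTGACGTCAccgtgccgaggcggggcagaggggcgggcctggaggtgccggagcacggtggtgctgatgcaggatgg
Counted from the transcription start, the element begins at position -86 in Kif17, -33 in Klc1, -26 in Kif5c and 30 in Kif18a. TGGGC is short and common: it was found in 65.8% of the kinesin windows and in 56.9% of all windows. The Kif17 window holds it 3 times and the Kif18a window 4 times, whereas those of Klc1 and Kif5c have none. A match describes the letters only and no binding was measured here.

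Kif17, the kinesin-2 motor known for carrying NMDA receptor subunits into dendrites, showed the largest change of the family. It read 8.37, 7.85 and 7.72 in the controls and 6.79, 6.81 and 6.81 in the mutants. All mutant arrays lay below all controls, and the mutants were nearly identical whereas control 1 stood above the other controls. The mean fell from 7.98 ± 0.35 to 6.81 ± 0.011 (SD, n = 3), which is a change of -1.17 ± 0.14 (SE; 95% interval -1.50 to -0.85; limma, adjusted p = 8.61e-04) or 2.26-fold. The study named Kif17 from these same samples, so its direction here is not independent evidence. The study also reported a loss of Kif17 mRNA by quantitative RT-PCR at the same time point. By its methods, tet-off mice served the transcriptome analysis and some synapse counts alone, which places the RT-PCR in the tamoxifen-induced line. The description of the RT-PCR itself does not name the line. In a bulk sample, fewer cells that express a gene and less RNA in each cell cannot be told apart.

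The other members of kinesin-2 did not pass the test. Kif3a and Kif3b form the heterodimeric motor of vesicles and of cilia, and Kif3c is a neuronal partner. Kif3a read 9.65, 9.43 and 9.24 in the controls and 9.72, 9.69 and 9.72 in the mutants, a change of 0.27 (95% interval 0.06 to 0.48; limma, adjusted p = 0.0963). Its groups did not overlap, but control 1 was close to the mutants. Kif3c read 10.51, 10.23 and 10.16 against 10.49, 10.43 and 10.44, a change of 0.15 (95% interval -0.04 to 0.35; limma, adjusted p = 0.311). Kif3b read 9.24, 9.08 and 8.91 against 9.16, 9.05 and 9.15, a change of 0.05 (95% interval -0.14 to 0.24; limma, adjusted p = 0.789). For Kif3b and Kif3c the groups overlapped. Within each array the level of Kif17 was also set against each Kif3 gene, and the difference shifted by -1.44 against Kif3a, -1.22 against Kif3b and -1.33 against Kif3c, with no overlap between the groups. These are 3 of 6 pairs compared, chosen with the values known, and each had the smallest p that an exact permutation test of 3 against 3 allows (two-sided p = 0.10, adjusted 0.10), so that none could pass.

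Among the heavy chains of kinesin-1, the conventional motor of axonal transport, Kif5a rose, and Kif5b and Kif5c did not pass. The neuronal Kif5a read 10.62, 10.23 and 10.14 in the controls and 10.85, 10.93 and 10.83 in the mutants. All mutants lay above all controls, and control 1 was the control nearest to them. The mean went from 10.33 ± 0.25 to 10.87 ± 0.050 (SD, n = 3), a change of 0.54 ± 0.11 (SE; limma, adjusted p = 0.0126) or 1.45-fold. The call was lost without control 2 or without mutant 2, at adjusted p of 0.0589 and 0.0567. Kif5b, the form found in most cell types, read 10.97, 10.96 and 10.90 against 10.84, 10.76 and 10.78, a change of -0.15 (95% interval -0.27 to -0.03; limma, adjusted p = 0.109). Its groups did not overlap, with the mutants below. Kif5c, another neuronal form, read 11.60, 11.40 and 11.23 against 11.74, 11.63 and 11.66, a change of 0.26 (95% interval 0.06 to 0.47; limma, adjusted p = 0.0834). The mutants again lay above the controls. Within arrays, the difference between Kif5a and Kif5b shifted by 0.68 toward Kif5a and that between Kif5a and Kif5c by 0.27, each without overlap and each at the exact permutation minimum of 0.10.

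Of the kinesin light chains, which link kinesin-1 to cargo, Klc1 rose. Klc1, the form enriched in neurons, read 11.55, 11.38 and 11.28 in the controls and 11.90, 11.75 and 11.81 in the mutants. The groups did not overlap, and each mutant lay above the highest control. The mean went from 11.40 ± 0.14 to 11.82 ± 0.076 (SD, n = 3), a change of 0.42 ± 0.078 (SE; 95% interval 0.24 to 0.59; limma, adjusted p = 0.00744) or 1.34-fold. Klc4 had a change of 0.25 (limma, adjusted p = 0.0853) and Klc3 of 0.07 (limma, adjusted p = 0.479).

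**Figure D2:**
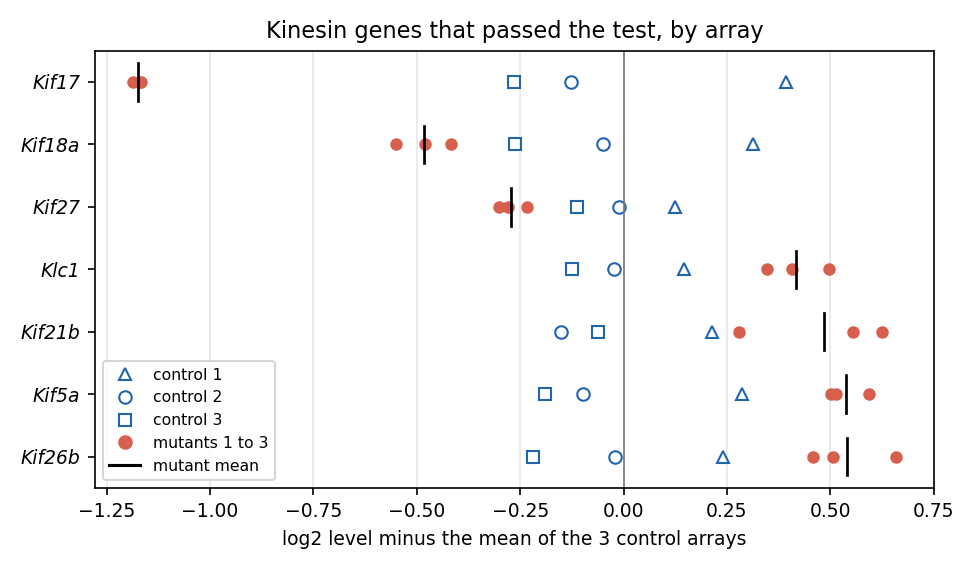
Log2 level of the 7 kinesin genes that passed the test in each of the 6 arrays, less the mean of the 3 control arrays. Open symbols are controls 1 to 3, filled circles are the mutants and the bar is the mutant mean. No gene has overlapping groups, and control 1 is the highest control for each.

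Kif21b and Kif21a belong to kinesin-4 and act in axons and dendrites, where Kif21b also affects the dynamics of microtubules. Kif21b read 7.06, 6.69 and 6.78 in the controls and 7.40, 7.47 and 7.12 in the mutants. Mutant 3 was only slightly above control 1, and the other mutants were clearly higher. The change was 0.49 ± 0.11 (SE; limma, adjusted p = 0.0214), or 1.40-fold, from 6.84 ± 0.19 to 7.33 ± 0.18 (SD, n = 3). It lost the call without control 2, control 3, mutant 1 or mutant 2, with adjusted p between 0.0580 and 0.0897. Kif21a read 9.95, 9.77 and 9.71 against 10.09, 10.02 and 10.02, a change of 0.23 (95% interval 0.07 to 0.39; limma, adjusted p = 0.0624). The 2 genes thus had changes above 0, and only that of Kif21b passed.

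The kinesin-3 motors carry synaptic vesicle precursors and other membrane cargo. Of the 7 genes of this family 0 passed, where 15.2% of all genes did. At an unadjusted p under 0.05 there were 4 in limma, for which the share of all genes was not counted. In the methods' test there was 1 at that p, where 22.8% of all genes were. Kif1a, the main motor of synaptic vesicle precursors, read 12.10, 12.04 and 11.79 in the controls and 12.25, 12.23 and 12.16 in the mutants, a change of 0.23 (95% interval 0.05 to 0.42; limma, adjusted p = 0.0984). Kif1b, which also carries mitochondria, read 11.68, 11.52 and 11.36 against 11.82, 11.78 and 11.76, a change of 0.27 (95% interval 0.09 to 0.45; limma, adjusted p = 0.0519). For both genes the mutants lay above the controls without overlap. Kif1c and Kif13a had changes of 0.23 and 0.22, Kif16b of 0.17 and Kif13b of -0.02, with overlapping groups. The last of the family, Kif14, acts in cytokinesis and had a change of -0.0027.

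Over all 15 cargo-carrying motors (kinesin-1 heavy chains, kinesin-2, kinesin-3 without Kif14, Kif21a and Kif21b), 2 rose, 1 fell and 12 did not pass, where 15.2% of all genes passed. The change was above 0 for 12 and below 0 for 3 of them, with a median of 0.23, where 49.0% of all genes had a change above 0. All 15 had a mean level above the median of all probe sets, 6.32, and 9 had groups without overlap, against 31.6% of all genes. When only genes at or above that level were fitted, 25.4% of them passed, with a median change of 0.022. In that fit 3 cargo motors rose and 1 fell. Control 1 was the highest control for 14 of these 15 genes, with Kif13b the exception, and for 38.6% of all genes. The titles carry a further number of unstated meaning. In its order control 1 comes first, then the mutants, then control 2 and control 3, with gaps between the numbers. No source gives a batch, and the part of such an order in these results was not tested.

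**Figure D3:**
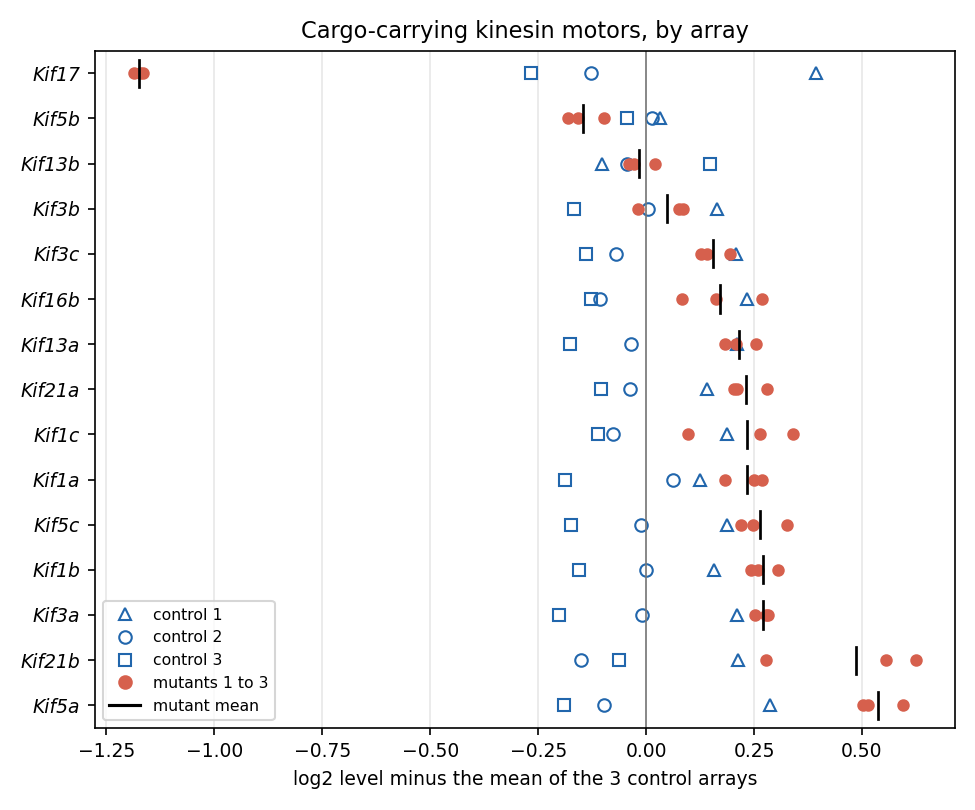
Log2 level of the 15 cargo-carrying kinesin motors in each array, less the mean of the 3 control arrays, ordered by change. Triangles mark control 1, which stands to the right of controls 2 and 3 in 14 of 15 genes, and the filled mutant points lie close together for most genes.

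The count of kinesins that passed depended on single arrays. Without control 1, 13 kinesin genes were higher and 3 lower, when 22.5% of all genes passed. The 9 genes added were all cargo motors (Kif1a, Kif1b, Kif1c, Kif3a, Kif3c, Kif5c, Kif13a, Kif16b and Kif21a), and the median change of the cargo motors was then 0.30. Without control 3 that median was 0.14. Without control 2, 2 kinesins were higher and 1 lower (9.69% of all genes), and without mutant 2 only Klc1 and Kif17 passed (9.80% of all genes). Kif17 and Klc1 passed whichever array was left out. With the methods' t-test on the same values and Benjamini-Hochberg adjustment, 0 kinesins passed (5.72% of all genes), while 10 had an unadjusted p under 0.05 (22.8% of all genes). The adjusted p of Kif17 was then 0.0600 and that of Klc1 0.0934, against 8.61e-04 and 0.00744 in limma.

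**Figure D4:**
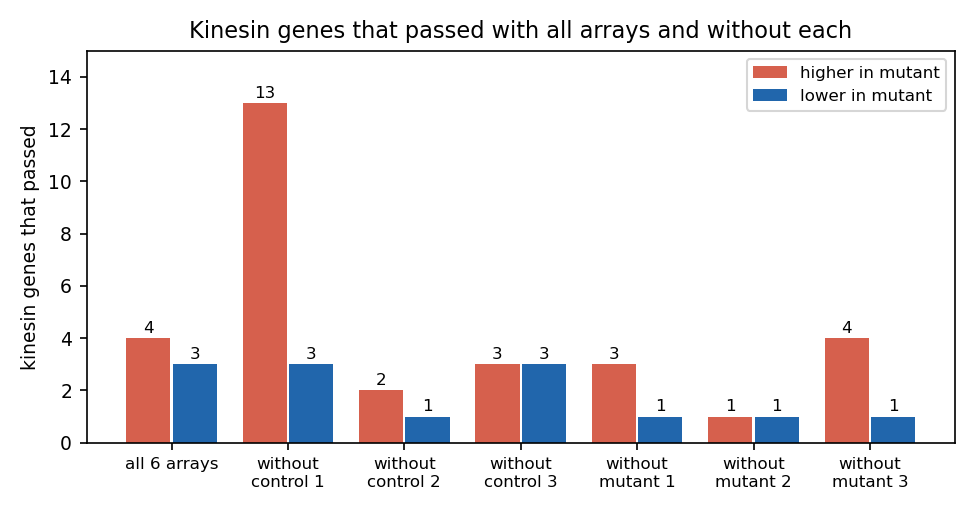
Number of kinesin genes of 41 that passed at an adjusted p of 0.05, higher or lower in the mutant, with all 6 arrays and with each array left out. The count higher in the mutant runs from 1 without mutant 2 to 13 without control 1, and the count lower from 1 to 3.

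Of the 12 kinesins of cell division, Kif18a fell and 11 did not pass, where 15.2% of all genes passed and 5.93% passed as lower. Their changes ran from -0.48 to 0.074 with a median of -0.017, and each of the 12 had a mean level below the median of all probe sets. Kif18a, which shortens spindle microtubules and aligns chromosomes, read 6.53, 6.16 and 5.95 in the controls and 5.79, 5.73 and 5.66 in the mutants. The mutants lay below the controls, and control 1 was again the highest. The change was -0.48 ± 0.13 (SE; limma, adjusted p = 0.0339), from 6.21 ± 0.29 to 5.73 ± 0.066 (SD, n = 3). The spindle motor Kif11 had a change of 0.0082 and the cytokinesis motors Kif20a, Kif20b and Kif23 had changes of 0.011, -0.0083 and -0.060. Of 19 markers of dividing cells, 1 rose (Tyms, a thymidylate synthase, by 0.59) and 0 fell, beside the same 15.2%. Their median change was -0.040, and 5 markers lay above the median level. In the limma fit 4 had an unadjusted p under 0.05, for which the share of all genes was not counted. The mean over these markers was 6.08 to 6.10 in the controls and 6.05 to 6.12 in the mutants.

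Of the 6 kinesins of cilia and of hedgehog signalling, Kif27 fell and 5 did not pass, where 15.2% of all genes passed and 5.93% passed as lower. Kif27, which takes part in the assembly of motile cilia, read 5.49, 5.35 and 5.25 in the controls and 5.08, 5.06 and 5.13 in the mutants, all lower than any control. The change was -0.27 ± 0.068 (SE; limma, adjusted p = 0.0291) at a level below the median of all probe sets. Kif7, a regulator of hedgehog signalling at the cilium, had a change of 0.07, and Kif6, Kif9, Kif19a and Kif24 lay between -0.039 and 0.062. Of 14 markers of ependymal and other ciliated cells, 1 rose (Dnah5, an axonemal dynein, by 0.67) and 13 did not pass. Of all genes, 9.23% passed as higher. The mean over these markers was 5.64 to 5.72 in the controls and 5.69 to 5.72 in the mutants. Kif27 and Kif18a lost the call without control 2 and without each of the 3 mutants in turn, and after centring on array medians or renewed quantile normalization. The arrays carry no measure of detection, so a low level cannot be told from background.

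Among the remaining genes Kif26b rose. It encodes an atypical kinesin that binds microtubules and takes part in development. Its main probe set read 8.52, 8.26 and 8.06 in the controls and 8.78, 8.94 and 8.74 in the mutants, all mutants above all controls. The change was 0.54 ± 0.11 (SE; limma, adjusted p = 0.0113), or 1.46-fold, and the call was lost without mutant 2 (adjusted p = 0.0534). A second probe set of Kif26b, with a lower mean, read 7.76, 7.74 and 7.79 against 7.83, 7.78 and 7.90, a change of 0.08 that did not pass over all probe sets (limma, adjusted p = 0.482). The probe sets therefore disagree in size. Kif2a, which removes tubulin from microtubule ends and limits axon branching, had a change of 0.10 (limma, adjusted p = 0.309). Kif12 and Kif26a had changes of 0.038 and 0.029, and Kif4-ps, which may share probes with Kif4, of -0.0088.

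Partner genes of transport were examined in lists, whose counts stand beside 15.2% of all genes that passed. Of 27 cargo adaptors of kinesins, 7 rose, 3 fell and 17 did not pass, with a median change of 0.12. All 27 had a mean level above the median of all probe sets, and 25.4% of genes at or above it passed when fitted alone. Hap1, which links vesicles to kinesin-1 and dynein, rose by 0.85, from 9.89, 9.74 and 9.81 in the controls to 10.80, 10.55 and 10.64 in the mutants (limma, adjusted p = 1.59e-04). Grip1, an adaptor of AMPA receptors to Kif5, rose by 0.56, and Clstn3, a calsyntenin, by 0.45. Also higher were Trak1, Trak2, Madd and Ppfia3, and lower were Lin7a, Lin7b and Fez2. Lin7a and Lin7b belong to the complex that links NMDA receptor vesicles to Kif17, and fell by 0.58 and 0.29. The other members of that complex in the list did not pass, with changes of -0.05 for Lin7c, 0.15 for Cask and 0.27 for Apba1 (limma, adjusted p = 0.597, 0.0770 and 0.112). Trak1 and Trak2, the adaptors of mitochondria to kinesin-1, rose by 0.46 and 0.39. These 10 genes outside the rule on named genes were chosen after their values were seen.

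Motors toward the minus end were measured as well. Of the minus-end kinesins and the kinesin-2 subunit Kifap3, Kifc3 rose by 0.36 (limma, adjusted p = 0.00402), and Kifc2 and Kifap3 did not pass, with changes of 0.28 and 0.05. Without control 1 a further gene of these 3 passed, when 22.5% of all genes did. Of 14 subunits of cytoplasmic dynein, 4 rose and 2 fell, with a median change of 0.060. Dync1i1, an intermediate chain, and Dync1li2, a light intermediate chain, rose by 0.40 and 0.34, and Wdr60, a subunit of the dynein of cilia, fell by 0.51. Only 1 of the 14 passed without mutant 1 (9.46% of all genes), and 2 without control 2 (9.69%) or without mutant 3 (9.78%). Of 21 genes of dynactin and dynein adaptors, 0 passed in limma, where 15.2% of all genes did. In that fit 5 had an unadjusted p under 0.05, for which the share of all genes was not counted. In the methods' test 2 had an unadjusted p under 0.05, where 22.8% of all genes did. The count that passed in limma was 5 without control 1 (22.5% of all genes) and 1 without control 3 (12.5%).

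Markers of other cells and states were counted in the same fit, in which 15.2% of all genes passed. Of 15 markers of mature granule cells, 3 rose and 8 fell, with means of 11.11 to 11.13 in the controls and 10.65 to 10.69 in the mutants. The median change of the list was -0.22. Those that rose were Tdo2, Npnt and Slc30a3 (changes 1.13, 0.34 and 0.24, named with their values known). C1ql2, a synaptic protein that the study named from these samples, fell by 3.29, and Prox1, the defining factor of granule cells, was 11.81, 11.70 and 11.45 against 11.65, 11.59 and 11.57, a change of -0.05 that did not pass (limma, adjusted p = 0.788), and was picked here with its value known. Of 10 markers of immature neurons, 5 rose, led by the microtubule regulator Stmn2 (change 1.55). Their mean was 8.55, 8.18 and 8.29 in controls 1 to 3 and 8.64 to 8.78 in the mutants, so that control 1 was also the control nearest to the mutants here. Of 12 markers of pyramidal and mossy cells, 6 rose and 1 fell, with means of 7.71 to 7.77 in the controls and 7.98 to 8.14 in the mutants. Bok led those that rose (change 1.90), and Fibcd1 fell (change -0.94, named with its value known).

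Among the other markers, 1 of 11 of GABAergic neurons rose and 2 fell, with means of 8.06 to 8.34 and 8.22 to 8.35. The neuropeptide Cck rose (change 1.56), and Npy and Gad1 fell (changes -0.58 and -0.27, both named with their values known). Of 12 astrocyte markers 2 rose, the glutamate transporter Slc1a2 (change 0.32) and the filament protein Gfap (change 0.54, named with its value known), with means of 8.90 to 9.14 and 9.08 to 9.27. Of 13 oligodendrocyte markers 2 fell, led by Ermn (change -1.71), with means of 7.74 to 7.81 and 7.42 to 7.62. Of 13 microglia markers 1 fell (Tmem119, change -0.32), with means of 6.74 to 7.16 and 6.70 to 6.83. Their part in the kinesin results was not tested.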

How the data were processed

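Expression was measured on 1 Affymetrix whole-transcript array for each of 3 control and 3 mutant samples. The authors deposited log2 expression levels of 35556 probe sets. The submitters' processing notes name RMA and Affymetrix Expression Console, without versions. RMA subtracts background, quantile normalizes the arrays and summarises each probe set, which removes any shift shared by all genes. Array medians lay between 6.29 and 6.36. Every deposited column belongs to 1 of the 6 arrays.

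The platform annotation pairs 21789 probe sets with 1 gene, 1621 with several, and leaves 12146 unlisted or without a symbol. The probe set with the highest mean stood for each of 19938 genes, and no filter on level was used. All 41 kinesin genes matched RefSeq (GRCm38.p6) by Entrez number, 6 of them with several probe sets. limma 3.58.1 (R 4.3.3; lmFit and eBayes without covariates, two-sided) served for the comparison. P-values were adjusted by Benjamini-Hochberg across all genes, and 0.05 was the threshold. The script was tested on simulated data. The number of arrays limits the precision.

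The members and gene lists were chosen with earlier results of these data known. Named genes were all kinesins, with full values for those past the threshold and for Kif17, Kif21a, Kif21b, Klc1 and the Kif1, Kif3 and Kif5 motors (Kif1c is given by its change), up to 3 genes past the threshold of each partner list, the leading gene of each marker list, and Bcl11b. Alternatives were the methods' t-test, a mean-variance trend, array weights, a filter on dim genes, other uses of probe sets, renewed quantile normalization, median centring, a replicate block, a threshold of 0.01 and leaving out each array.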

Additional observations from a re-analysis of the deposited data

How the results depend on the processing

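With all arrays, 4 kinesin genes were higher and 3 lower in the mutant. With Benjamini-Hochberg adjustment of the methods' test, 0 were higher and 0 lower, when 5.72% of all genes passed. In that test 10 kinesins had an unadjusted p under 0.05, and so did 22.8% of all genes. Array weights gave 13 higher, when 27.7% of all genes passed, and a threshold of 0.01 gave 1 higher and 1 lower, when 7.79% did. Among genes at or above the median level 5 were higher and 1 lower, when 25.4% of those genes passed. Kif18a and Kif27 lie below that level and were not tested there. With every probe set on its own there were 3 higher and 1 lower (9.86% of all genes). Renewed quantile normalization gave 6 higher and 1 lower (15.8%), and centring on array medians 4 higher and 1 lower (14.3%). Leaving out 1 array gave 1 to 13 higher and 1 to 3 lower, when 9.46% to 22.5% of all genes passed. The cause of these differences was not tested. The replicate numbers were not treated as pairs, because the deviations of same-numbered arrays correlated at 0.164, -0.0328 and 0.118. The fit with the replicate number as a block gave 8 higher and 3 lower, when 15.9% of all genes passed. Over 17 alternatives, the 7 genes that passed gave 117 comparisons, of which 83 kept direction and call, 34 kept the direction alone and 0 reversed. The methods' t-test, the mean-variance trend and the filter on dim genes leave the change itself as it was. So do every probe set on its own, the threshold of 0.01 and the replicate block. For a gene with 1 probe set, the mean of all probe sets does so too. No direction could reverse in those settings, here or in the counts that follow. The named kinesins that did not pass gave 136, of which 112 stayed below the threshold with their direction, 23 passed and 1 reversed, which was Kif3b at -0.036 without control 3 (-0.036 to 0.13 over the arrays left out). Of 390 comparisons of the other genes named under the rule, 376 kept direction and call and 14 the direction alone. Of the partner lists, the methods' test with adjustment left 5 of 10 cargo adaptors, 2 of 6 dynein subunits, 3 of 6 intraflagellar transport genes and 2 of 5 tubulins. The denominators are the genes that passed in limma. Over all genes the share that passed went from 15.2% in limma to 5.72% in that test.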

Other observations

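Tubulins form the microtubules on which kinesins run. Of 13 tubulin genes, 2 rose, 3 fell and 8 did not pass, where 15.2% of all genes passed, with a median change of 0.081. The mean over the list was 9.77 to 9.92 in the controls and 9.80 to 9.82 in the mutants. Tubb2b, a β-tubulin of young neurons, read 12.19, 11.91 and 11.68 in the controls and 10.36, 10.19 and 10.36 in the mutants, and fell by 1.62 ± 0.12 (SE; limma, adjusted p = 5.75e-05). Tubb2a, a near copy whose probe set may share signal with that of Tubb2b, fell by 0.39 (limma, adjusted p = 0.00434). Such sharing was not tested. Tuba8, an α-tubulin, read 7.76, 7.77 and 7.69 against 8.39, 8.58 and 8.42, and rose by 0.72 (limma, adjusted p = 1.51e-04). The groups did not overlap for any of these 3 genes.

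The intraflagellar transport genes encode the trains that kinesin-2 and dynein move along cilia. Of 22 measured, 2 rose, 4 fell and 16 did not pass, beside the same 15.2%, with a median change of -0.025. Ttc26 read 8.64, 8.45 and 8.29 in the controls and 7.68, 7.64 and 7.53 in the mutants, and fell by 0.84 ± 0.089 (SE; limma, adjusted p = 3.80e-04). Hspb11 and Ift20 fell by 0.45 and 0.38, and Ift122 by 0.19, whereas Ift46 and Ift81 rose by 0.28 and 0.41. The last 3 were named after their values were seen. The count that passed was 3 without control 2, control 3, mutant 2 or mutant 3, when 9.69% to 12.5% of all genes passed.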
